A study of Mus musculus with 84 samples.

Results

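The genes described here are 38 listed genes of the synaptic vesicle and its release machinery, out of 55401 gene IDs in the count files. They were chosen by name, as members of known families, with earlier results of these data known. The list has 13 synaptotagmins, 3 synapsins, 7 genes of the SNARE core with complexins and Nsf, 9 priming and active zone genes, and 6 vesicle membrane proteins. It does not hold every gene of these families, such as every synaptotagmin. All 38 symbols matched 1 gene ID each and all 38 passed the filter on low counts, which left 17941 genes to test. RNA had been sequenced from NeuN-positive nuclei of the mouse frontal cortex, anterior to bregma +1 mm. The sort used NeuN, the Rbfox3 protein, which is found in the nuclei of most neurons.

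All mice were of the strain 129S6/SvEvTac and 12 weeks old. The vehicle group had vehicle only, and the other groups were taken 24 h, 48 h or 7 days after DOI (2,5-dimethoxy-4-iodoamphetamine), a psychedelic that activates the serotonin 2A receptor. Each group is represented by RNA of 4 mice (n = 4), and each mouse by the summed counts of its 2 libraries. The vehicle mice are the control of all 3 DOI groups, so those comparisons share them. Levels are nuclear RNA in CPM, counts relative to the library size after scaling by TMM factors.

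A synaptic vesicle is filled with transmitter, held near the membrane by the active zone, primed for fusion and fused when calcium enters. Fusion is driven by SNARE proteins on the vesicle (synaptobrevins, the Vamp genes) and on the plasma membrane (Stx1a and Snap25), is timed by complexins and by synaptotagmins that bind calcium, and is followed by disassembly of the SNARE complex by Nsf. Munc13 proteins (the Unc13 genes), RIM proteins (the Rims genes), Rab3a, Bassoon (Bsn) and Piccolo (Pclo) organise docking and priming. In cortical neurons these proteins act at terminals, while the RNA measured here is in the nucleus of the cell body.

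Of the 38 genes, 27 had an entry in the RefSeq promoter table (GRCm38.p6). Syt4, Syt5, Syt7, Syt12, Syt13, Syt17, Syn3, Snap25, Vamp2, Rims2 and Syngr3 had none there. The 250 bases before the start of Unc13a and Bsn, which were higher after DOI, and of Unc13c and Nsf, which were lower, are printed as examples of genes whose changes are described below. The choice was made after their values were seen, and other lower genes with an entry, such as Rab3a and Stx1a, had larger falls than Nsf on the log2 scale. Each is written 5′ to 3′ on the strand of the gene, here the minus strand for all 4. Capitals mark matches, on either strand, to the motifs searched.

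Unc13a, chr8:71671758-71672007, minus strand: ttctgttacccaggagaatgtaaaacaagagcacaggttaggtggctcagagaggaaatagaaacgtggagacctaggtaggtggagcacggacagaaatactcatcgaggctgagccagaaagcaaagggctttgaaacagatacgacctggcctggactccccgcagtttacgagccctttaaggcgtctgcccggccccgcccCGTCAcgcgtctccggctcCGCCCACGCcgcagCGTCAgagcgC

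Bsn, chr9:108190384-108190633, minus strand: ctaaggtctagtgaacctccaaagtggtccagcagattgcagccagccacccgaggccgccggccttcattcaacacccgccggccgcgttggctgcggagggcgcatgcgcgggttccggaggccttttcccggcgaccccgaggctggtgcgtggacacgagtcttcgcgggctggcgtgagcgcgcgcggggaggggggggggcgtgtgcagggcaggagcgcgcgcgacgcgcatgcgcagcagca

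Unc13c, chr9:73969038-73969287, minus strand: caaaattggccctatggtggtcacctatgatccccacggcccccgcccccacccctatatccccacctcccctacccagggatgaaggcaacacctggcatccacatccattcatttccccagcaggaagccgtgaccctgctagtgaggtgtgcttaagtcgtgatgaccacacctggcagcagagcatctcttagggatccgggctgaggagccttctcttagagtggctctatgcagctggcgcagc

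Nsf, chr11:103954057-103954306, minus strand: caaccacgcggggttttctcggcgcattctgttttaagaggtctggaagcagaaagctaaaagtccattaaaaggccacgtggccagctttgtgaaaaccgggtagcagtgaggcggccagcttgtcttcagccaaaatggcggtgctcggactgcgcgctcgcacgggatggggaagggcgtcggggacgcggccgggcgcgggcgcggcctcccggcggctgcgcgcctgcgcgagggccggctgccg

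The motifs searched in the 250 bases before and the bases just after each start were the CRE TGACGTCA, its shorter form TGACG (which lies inside the CRE), the AP-1 site TGANTCA, the EGR site GCGTGGGCG, and the parts TCAGCACC and GGACAGCG of the RE1 element. The EGR site was found in 0.707% of the promoters of 27025 genes and, among the 27 members, in Unc13a, at positions -25 to -17 from the start. Unc13a also held the short CRE form at -44 to -40, at -11 to -7 and across the start, where the last capital of its sequence is the first letter of that match. Both RE1 parts were found in Unc13a after the start, at positions 7 to 14 and 23 to 30. Bsn, Unc13c and Nsf held none of these letters in this window. The full CRE was found in Syn1 alone among the members, at -159 to -152, against 2.03% of all promoters. The short CRE form was found in 6 members (Cplx1, Rab3a, Stx1a, Syn1, Syt2 and Unc13a), against 23.0% of all promoters. AP-1 sites were found in Syt2 and Syt6, against 8.97% of all promoters. TCAGCACC was found in Syn1 and Unc13a (1.85% of all promoters) and GGACAGCG in Syt6 and Unc13a (1.48%). The median GC content was 61.2% in the 27 members and 52.0% in all promoters, with a median of 16 CpG against 6. Bsn had 32 CpG in 71.6% GC and Nsf 30 in 66.0%, while Unc13c had 6 in 58.8%. These matches are a description of letters, not of bound sites.

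Total counts per mouse were 9151680 to 11517452 for vehicle; the 24 h mice had 6441396 to 8090559, the 48 h mice 5834248 to 7344355 and the 7 days mice 6972577 to 12354785. Vehicle mice were thus deeper than all mice at 24 h and 48 h. The fewest counts of a member in a mouse were 15, for Syt9, followed by 27 for Unc13c and 34 for Syt2, and a level of 3 counts was 0.254 to 0.502 CPM. An 18S ribosomal RNA pseudogene, CT010467.1, was at 72.3 to 110 CPM in vehicle, 3258 to 15060 at 24 h and 5107 to 16120 at 48 h. At 7 days it was at 87.3, 6171, 63.4 and 4622 CPM in mice 1 to 4. Its share and the drug cannot be told apart at 24 h and 48 h, where the groups do not overlap. With this share as a covariate, 0.0% of all genes had an edgeR adjusted p below 0.05 at 24 h and at 48 h. Without it these were 24.2% and 30.1%. That fit cannot separate the share from the drug, and the cause was not tested. The mitochondrial share of counts also moved with the groups, from 0.017% to 0.070% in vehicle mice to a range of 0.062% to 0.101% after 24 h, which overlaps vehicle, and of 0.108% to 0.268% after 48 h, which does not. In the 7 days mice it was 0.021% to 0.130%. With the mitochondrial share as a covariate, 1.47% of all genes had an edgeR adjusted p below 0.05 at 24 h and 0.0% at 48 h. The cause was not tested. Mouse 1 at 24 h and mouse 1 at 48 h had fewer detected genes (22989 and 21266) than the other mice of their groups. In the file headers mouse 1 at 24 h and mouse 2 of both the 48 h and the 7 days group carried the number 6, while their group matched the label.

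Markers of cell types moved with the groups. Rbfox3 was higher at 24 h by 0.81 and at 48 h by 0.82 on the log2 scale (edgeR adjusted p of 0.0103 and 0.00775). The summed level of 6 excitatory neuron markers was 352 to 393 CPM in vehicle, 907 to 2332 at 24 h and 1369 to 2119 at 48 h. It was 318, 1341, 298 and 1188 CPM in the mice at 7 days. The mean of Camk2a alone went from 180.1 CPM in vehicle to 1405 CPM at 24 h, and 2 of the 6 markers passed the test at 24 h and at 48 h, both higher. The sum of 5 inhibitory neuron markers was 845 to 1101 CPM in vehicle, 509 to 710 at 24 h and 467 to 990 at 48 h, with 2 of 5 lower at 24 h (Gad1 and Gad2) and 1 of 5 lower at 48 h (Gad1). Gad1 and Gad2 make up most of this sum, and Dlx1 and Lhx6 had positive log2 fold changes at both times (0.61 and 0.82, 0.24 and 0.61) without passing. The sum of 7 interneuron subtype markers was 1424 to 3177 CPM in vehicle, 2242 to 4132 at 24 h and 2605 to 3587 at 48 h. The sum of 8 striatal projection neuron markers was 348 to 385 CPM in vehicle, 249 to 319 at 24 h, 309 to 656 at 48 h and 665, 1807, 418 and 1361 CPM in the mice at 7 days. Glial sums ranged from 653 to 721 CPM in vehicle for 8 astrocyte markers, 175 to 386 for 7 oligodendrocyte markers, 13.5 to 34.7 for 4 precursor markers and 84.4 to 123 for 7 microglia markers. At 24 h and 48 h they were 635 to 1137, 170 to 259, 13.9 to 21.7 and 52.3 to 108. The sum of 5 endothelial markers was at most 9.94 CPM in any mouse, and Cldn5 was at 0 in all 4 vehicle mice. In these bulk samples, fewer cells of a type and less RNA per cell cannot be told apart, and the part of cell composition in the results was not tested.

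In vehicle mice the release genes spanned a wide range of levels. Per kilobase of exon, Snap25, which supplies the SNARE of the plasma membrane that spans no membrane itself, stood highest at 604 CPM per kb ± 40.9 (SD, n = 4). Syt11, a synaptotagmin that does not bind calcium, followed at 332 ± 100 and Syngr3, a synaptogyrin of the vesicle membrane, at 314 ± 83.97 CPM per kb, a pair whose difference lies within their SD. Syt5 (145 ± 62.8), Nsf (122 ± 28.3) and Syt1 (118 ± 15.3), the sensor of fast release in most cortical neurons, also did not differ beyond their SD. Stx1a (89.1 ± 3.54), Sv2a (85.6 ± 14.2), Sv2b (84.2 ± 11.4) and Syt4 (76.7 ± 19.6) came next, again with overlapping SD. Syp, the vesicle protein synaptophysin, was 15th of 38 at 40.7 ± 4.95 CPM per kb. The large active zone genes stood low, with Pclo at 8.33 ± 1.13, Unc13a at 4.22 ± 0.58 and Bsn at 2.85 ± 0.36 CPM per kb. The lowest levels were those of Syt2 (1.38 ± 0.73), Vamp1 (1.28 ± 0.22) and Syt9 (0.68 ± 0.29). Syt2 and Vamp1 are the forms used by many fast-spiking and hindbrain neurons. The spread between mice, as the coefficient of variation, had a median over the members of 14.5% for vehicle mice; for the mice at 24 h it was 21.5%, for those at 48 h 23.3% and for those at 7 days 35.9%. Over all genes tested it was 20.0%, 28.4%, 27.9% and 36.8%. Cplx2 varied least among vehicle mice (2.79%) and Syt2 most (52.8%), while at 7 days Rab3a varied most (81.0%).

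One day after DOI some of the release genes were higher and some lower, while 26 of 38 did not pass the test. The priming genes Unc13a and Bsn were about 3-fold higher (3.25 and 3.10), and Unc13c was 3.85-fold lower. By edgeR's quasi-likelihood test, adjusted over 17941 genes, 12 of 38 members passed a threshold of 0.05 (31.6%), 6 higher and 6 lower. Of all genes tested, 24.2% passed at this time, 13.8% higher and 10.4% lower. In 19 of the 38 the 4 treated mice did not overlap the 4 vehicle mice, against 35.7% of all genes. The median log2 fold change of the members was 0.06 (all genes 0.03) and the median size 0.58 without sign (all genes 0.56). The number of lower members went from 6 to 2 without vehicle mouse 1, 24 h mouse 1 or 24 h mouse 4, and to 3 without vehicle mouse 4. The share of all genes that passed, in either direction, also went down in these fits, to between 13.9% and 17.4%. With scaling by total counts alone 8 members were higher and 4 lower, and the median of all genes moved to 0.14 from 0.03.

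At 48 h, 19 members passed the test (50.0%), 11 higher and 8 lower. Of all genes tested 30.1% passed, 16.8% higher and 13.3% lower. The mice did not overlap in 22 members, against 38.1% of all genes. The median log2 fold change of the members was 0.14 (all genes 0.02), and their median size was 0.63 (all genes 0.61). The number of higher members went to 7 without vehicle mouse 2 or 48 h mouse 1. The number of lower members went to 2 without vehicle mouse 1 or 48 h mouse 2, to 3 without 48 h mouse 3, to 4 without vehicle mouse 2 or 48 h mouse 1, and to 5 without vehicle mouse 3 or 4. The share of all genes that passed, in either direction, was lower too. It was 19.0% to 23.5% without a vehicle mouse, and 20.2% to 24.9% without 48 h mouse 1, 2 or 3.

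Of the members, 10 were past the threshold at both times, Cplx1 and Sv2b at 24 h alone, 9 at 48 h alone and 17 at neither. When 48 h was compared directly with 24 h, 0 members passed by edgeR, as did 0.0% of all genes, 0 members had an unadjusted p below 0.05, and DESeq2 also called 0. A call at 1 of these times is therefore not shown to differ from the other time. Log2 fold changes of 48 h over 24 h ran from -0.28 for Syngr3 to 0.43 for Syt2.

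**Figure D1:**
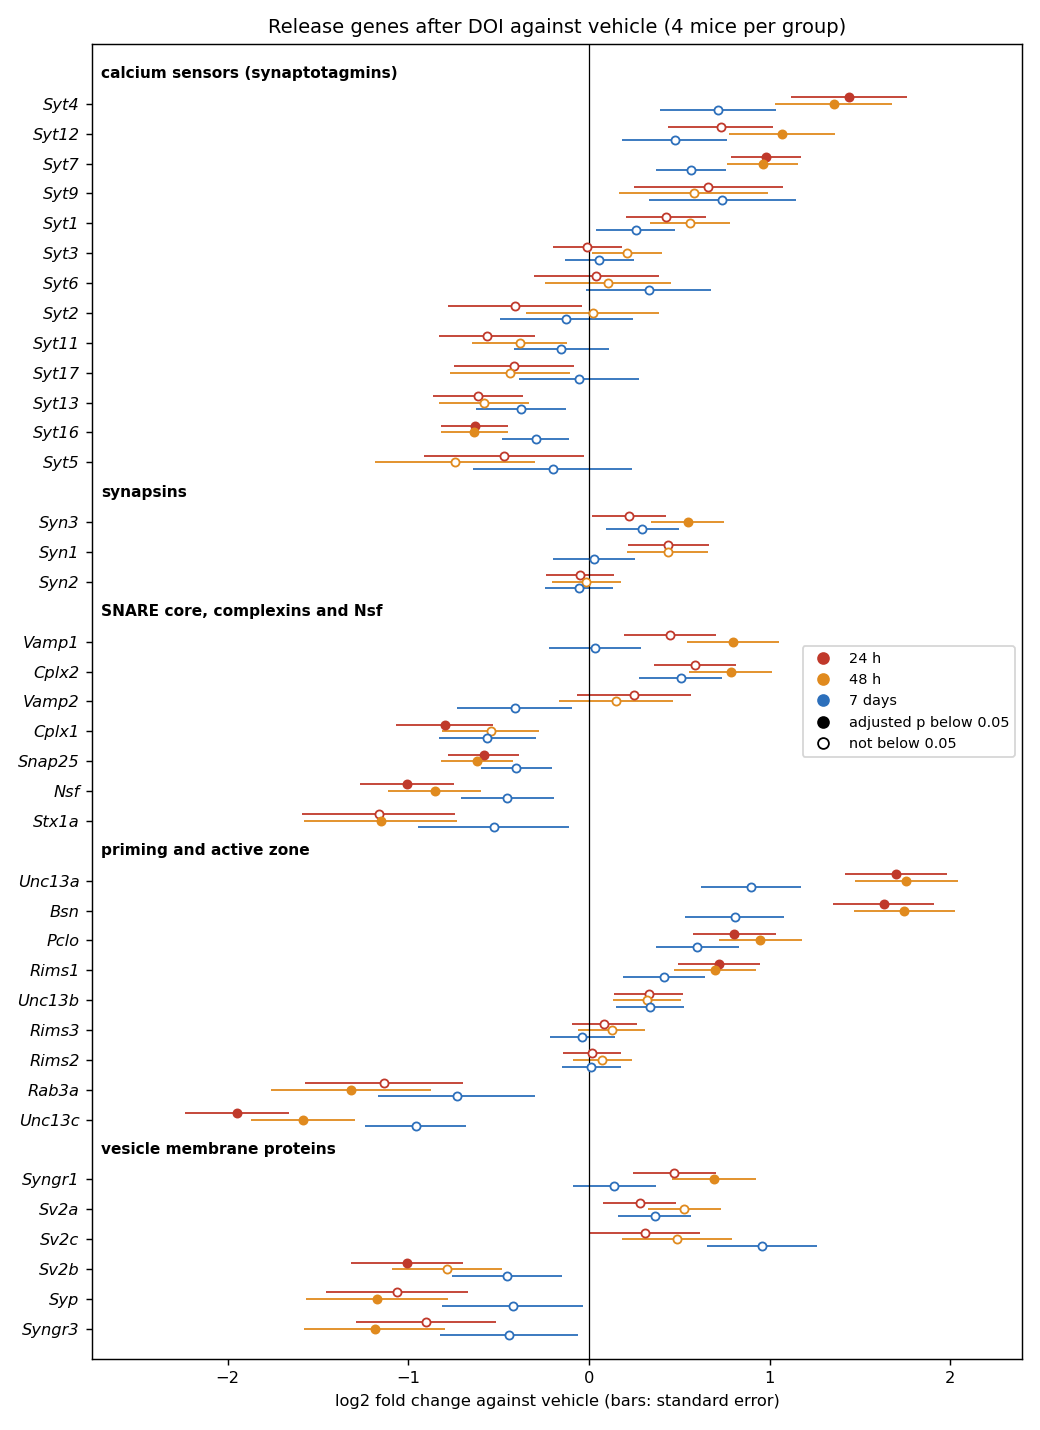
Log2 fold change of each of the 38 genes at 24 h (red), 48 h (orange) and 7 days (blue) against vehicle, with the standard error, grouped by role; 4 mice per group, filled points have an edgeR adjusted p below 0.05. Unc13a, Bsn and Syt4 stand farthest to the right and Unc13c farthest to the left, and no point of the 7 days group is filled.

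The priming and active zone genes held the largest changes. Unc13a encodes Munc13-1, the priming factor that most excitatory cortical synapses depend on (chromosome 8, 71624417 to 71671757, minus strand, GRCm38). It was at 49.0, 48.4, 64.0 and 51.5 CPM in the vehicle mice. At 24 h it was at 159.6, 189.6, 160.5 and 182 CPM, and at 48 h at 146, 234, 156 and 185 CPM. All 8 of these DOI mice lay above the highest vehicle mouse by more than the whole vehicle range. The log2 fold change was 1.70 (SE 0.28, edgeR adjusted p 0.00190) at 24 h and, with an SE of 0.28, 1.76 at 48 h (adjusted p 0.00155). Of its exon bases, 3.92% lie on an opposite-strand gene, and the counting did not use strand.

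Bsn encodes Bassoon, a giant scaffold of the active zone (chromosome 9, 108096022 to 108190384, minus strand). Its level was 43.1, 42.4, 53.8 and 42.1 CPM in vehicle, 85.9, 169.9, 162 and 144 CPM at 24 h, and 113, 173, 116 and 206 CPM at 48 h. Mouse 1 at 24 h was the lowest treated mouse and still stood above all vehicle mice. The log2 fold change was 1.63 (SE 0.28, edgeR adjusted p 0.00219) at 24 h and, with an SE of 0.28, 1.75 at 48 h (adjusted p 0.00155). Its relative Pclo, the scaffold Piccolo, rose by 0.81 (SE 0.23, adjusted p 0.0183) after 24 h and, with an SE of 0.23, by 0.95 after 48 h (adjusted p 0.00684) by the same edgeR test. Rims1, which tethers vesicles and calcium channels at the active zone, rose by 0.72 (SE 0.23, adjusted p 0.0295) after 24 h and, with an SE of 0.23, by 0.70 after 48 h (adjusted p 0.0285), edgeR.

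Unc13c encodes Munc13-3, best known from the cerebellum (chromosome 9, 73479422 to 73968966, minus strand). It was at 24.6, 23.9, 24.9 and 19.8 CPM in vehicle. At 24 h its level was 5.18, 4.02, 8.24 and 6.63 CPM, and at 48 h 8.40, 7.03, 9.93 and 5.72 CPM. No DOI mouse at these times reached the lowest vehicle mouse. The log2 fold change was -1.95 (SE 0.29, edgeR adjusted p 0.00153) at 24 h and, with an SE of 0.29, -1.58 at 48 h (adjusted p 0.00188). The remaining Munc13 gene of the list, Unc13b, had a log2 fold change of 0.33 (adjusted p 0.207) and 0.32 (adjusted p 0.201), and did not pass the edgeR test.

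Rab3a, the GTPase that marks vesicles for RIM binding, was at 144, 133, 130.4 and 116 CPM in vehicle (chromosome 8, 70754679 to 70758677, plus strand). It was at 37.0, 74.1, 69.2 and 57.4 CPM at 24 h and at 44.9, 37.2, 37.1 and 90.1 CPM at 48 h. The groups did not overlap at either time, and 48 h mouse 4 stood apart from its group on the side of vehicle. The log2 fold change was -1.14 (SE 0.44) at 24 h, with an edgeR adjusted p of 0.0651, and -1.32 (SE 0.44) at 48 h, with an adjusted p of 0.0317. Rims2 and Rims3 lay near 0, with log2 fold changes of 0.02 and 0.09 at 24 h and 0.07 and 0.12 at 48 h. Of the 9 genes of this role, 5 passed at 24 h (4 higher) and 6 at 48 h (4 higher), against 24.2% and 30.1% of all genes.

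**Figure D2:**
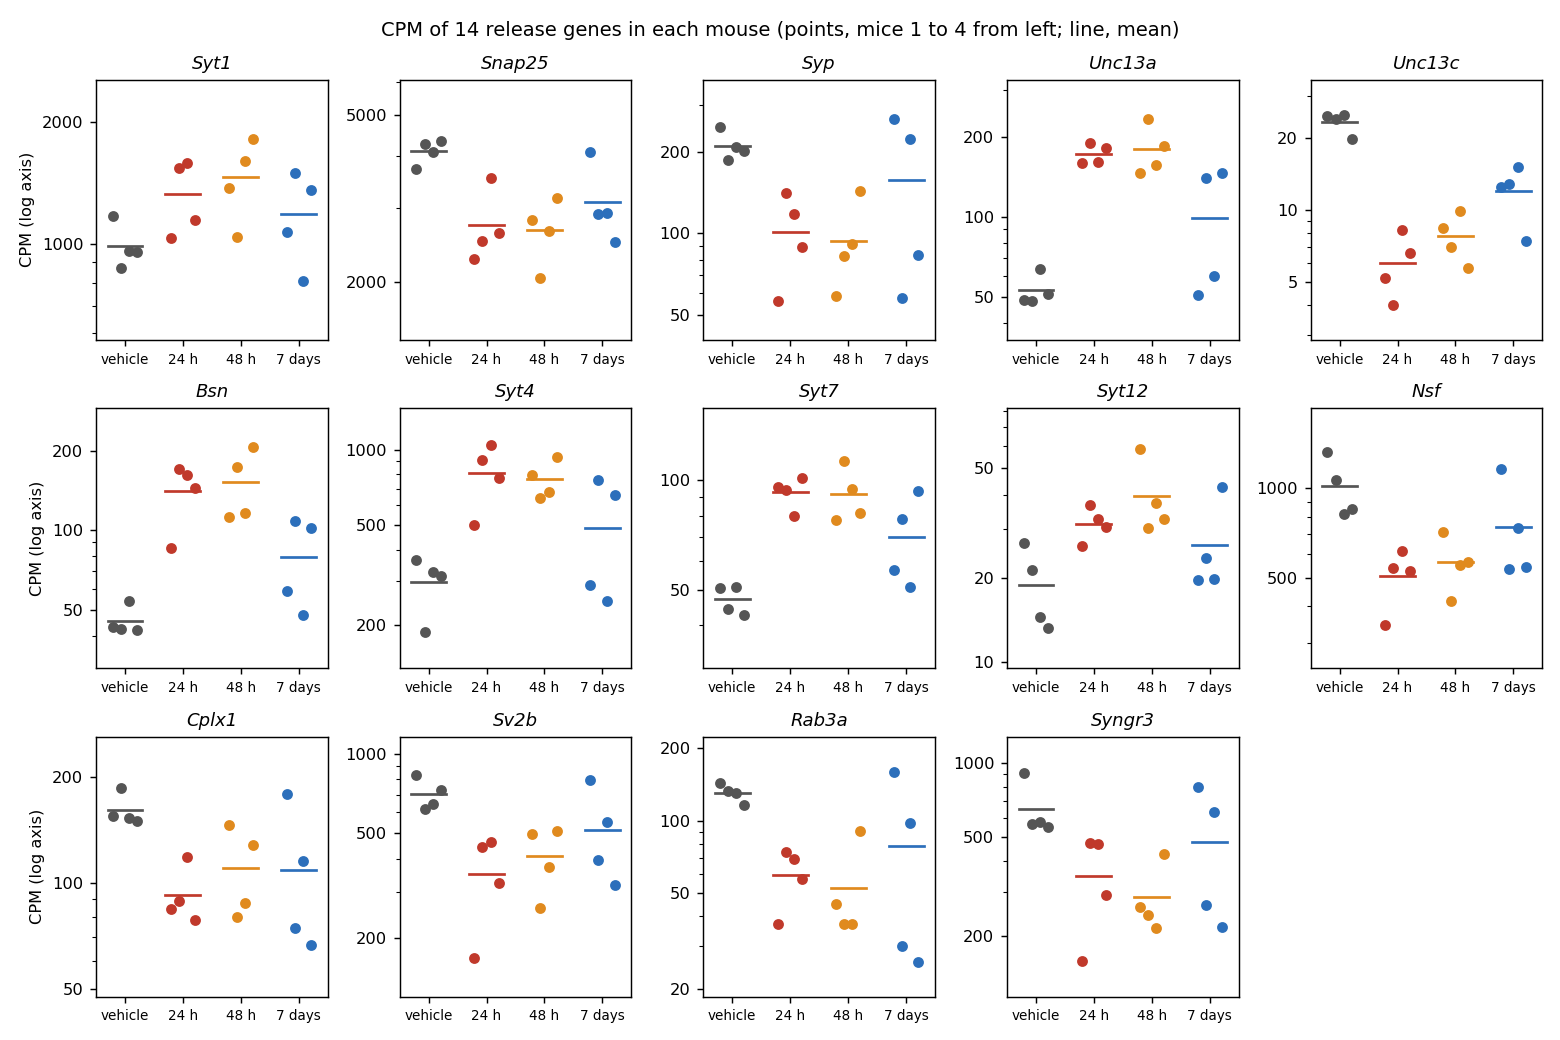
CPM (log axis) of 14 release genes in each of the 16 mice; points are mice 1 to 4 from left and the line is the group mean. Unc13a lies at 48.4 to 64.0 CPM in vehicle and at 146 to 234 CPM in the 8 mice at 24 h and 48 h, while the mice at 7 days are split for most of these genes.

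Among the 13 synaptotagmins, Syt4, Syt7 and Syt12 were the genes that rose. Syt4 encodes a synaptotagmin with a weak response to calcium that is found on neuropeptide and neurotrophin vesicles (chromosome 18, 31437808 to 31447406, minus strand). It was at 366, 189, 325 and 314 CPM in vehicle, 504, 914, 1045 and 775 CPM at 24 h, and 792, 644, 681 and 935 CPM at 48 h. All 8 DOI mice stood above the vehicle mice. Its log2 fold change was 1.44 (SE 0.32, edgeR adjusted p 0.00591) and 1.35 (SE 0.32, adjusted p 0.00631). An opposite-strand gene shares 14.5% of its exon bases, and reads there that were assigned to both genes were not counted.

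Syt7 is the slow, high-affinity calcium sensor of asynchronous release and facilitation (chromosome 19, 10389090 to 10453180, plus strand). It was at 50.4, 44.2, 51.0 and 42.5 CPM in vehicle, 96.1, 94.2, 79.6 and 102 CPM at 24 h, and 77.9, 113, 94.6 and 81.4 CPM at 48 h. The groups did not overlap, and the log2 fold change was 0.98 (SE 0.20, edgeR adjusted p 0.00355) and 0.96 (SE 0.20, adjusted p 0.00285). Syt12, which binds no calcium, was at 26.7, 21.5, 14.4 and 13.2 CPM in vehicle and at 58.7, 30.3, 37.2 and 32.8 CPM at 48 h (chromosome 19, 4445908 to 4477447, minus strand). The 48 h mice lay above all vehicle mice, with a log2 fold change of 1.07 (SE 0.29, edgeR adjusted p 0.0126). At 24 h Syt12 was at 26.0, 36.6, 32.6 and 30.5 CPM, overlapping vehicle through mouse 1, and its log2 fold change of 0.73 had an adjusted p of 0.0736. An opposite-strand gene shares 17.2% of the exon bases of Syt12.

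Syt1, the sensor of fast synchronous release, did not pass the test (chromosome 10, 108497650 to 109010982, minus strand). It was at 1169, 869, 960.1 and 952 CPM in vehicle, 1033, 1538, 1585 and 1144 CPM at 24 h, and 1375, 1036, 1603 and 1813 CPM at 48 h. The DOI mice overlapped vehicle at both times, and the log2 fold change was 0.42 (SE 0.22, edgeR adjusted p 0.163) and 0.56 (SE 0.22, adjusted p 0.0614). Syt16, which lacks the calcium-binding residues, fell by 0.63 at both times (SE 0.19, adjusted p 0.0213 and 0.0174, edgeR). The other members of the family, Syt2, Syt3, Syt5, Syt6, Syt9, Syt11, Syt13 and Syt17, did not pass the test at any time. Their log2 fold changes ran from -0.61 (Syt13) to 0.66 (Syt9) at 24 h and from -0.74 (Syt5) to 0.58 (Syt9) at 48 h. In all, 3 of 13 synaptotagmins passed at 24 h (2 higher) and 4 at 48 h (3 higher), shares close to those of all genes.

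The synapsins tether vesicles in the reserve pool, and 0 of 3 passed the test at 24 h and 1 of 3 at 48 h, when 30.1% of all genes passed. Syn3 rose at 48 h by 0.55 (SE 0.20) with an edgeR adjusted p of 0.0499, just inside the threshold, and lost the call when any 1 mouse of the groups compared was left out. An opposite-strand gene shares 14.1% of its exon bases. Syn1 had log2 fold changes of 0.44 at 24 h and 0.43 at 48 h (adjusted p 0.159 and 0.149), and Syn2 of -0.05 and -0.01.

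Of the SNARE genes, Snap25 was the most abundant and was lower after DOI (chromosome 2, 136713453 to 136782428, plus strand). It was at 3717, 4274, 4079 and 4334 CPM in vehicle, 2278, 2508, 3547 and 2621 CPM at 24 h, and 2812, 2043, 2650.0 and 3169 CPM at 48 h. Mouse 3 at 24 h came within 1 vehicle SD (278 CPM) of the lowest vehicle mouse, and the groups did not overlap. Its log2 fold change was -0.58 (SE 0.20, edgeR adjusted p 0.0395) and -0.62 (SE 0.20, adjusted p 0.0257). Stx1a, its partner syntaxin-1A, was at 234, 251, 229.5 and 236 CPM in vehicle, 69.6, 131, 128 and 94.9 CPM at 24 h and 93.4, 115, 59.0 and 159.7 CPM at 48 h. The DOI mice lay below vehicle at both times, with a log2 fold change of -1.16 (SE 0.42, edgeR adjusted p 0.0518) at 24 h, just outside the threshold, and -1.15 (SE 0.42, adjusted p 0.0468) at 48 h, just inside it.

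Nsf, the ATPase that takes the SNARE complex apart, was at 1331, 1065, 816 and 855 CPM in vehicle (chromosome 11, 103821782 to 103954056, minus strand). It was at 346, 537, 615 and 525 CPM at 24 h and at 714, 417, 553 and 564 CPM at 48 h, below all vehicle mice. Its log2 fold change was -1.01 (SE 0.26, edgeR adjusted p 0.0116) and -0.86 (SE 0.26, adjusted p 0.0201). Of the vesicle SNAREs, Vamp1 rose at 48 h by 0.80 (SE 0.26, adjusted p 0.0262, edgeR), and Vamp2, the main vesicle SNARE of the forebrain, had log2 fold changes of 0.25 and 0.15 (adjusted p 0.586 and 0.750).

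Complexins clamp and promote fusion at the SNARE complex. Cplx1 fell at 24 h and Cplx2 rose at 48 h. Cplx1 was at 155, 186, 152 and 150.2 CPM in vehicle and at 84.1, 88.7, 119 and 78.5 CPM at 24 h (chromosome 5, 108518554 to 108550024, minus strand). The 24 h mice lay below vehicle, with a log2 fold change of -0.80 (SE 0.27, edgeR adjusted p 0.0386). The 48 h mice were at 146, 80.0, 87.8 and 128 CPM, also below vehicle, with a log2 fold change of -0.54 (SE 0.27, adjusted p 0.130). Cplx2 had log2 fold changes of 0.59 (SE 0.23, adjusted p 0.0667) at 24 h and, with an SE of 0.23, 0.78 at 48 h (adjusted p 0.0173) by the edgeR test, and its mice did not overlap vehicle at either time.

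Of the vesicle membrane proteins, Sv2b, Syp and Syngr3 were lower. Sv2b, a vesicle transporter-like protein of excitatory terminals, was at 828, 617, 646 and 731 CPM in vehicle and 168, 445, 464 and 326 CPM at 24 h (chromosome 7, 75114894 to 75309262, minus strand). Its log2 fold change was -1.01 (SE 0.31, edgeR adjusted p 0.0250). At 48 h Sv2b was at 496, 260.1, 371 and 509 CPM, below all vehicle mice, with -0.79 (SE 0.31, adjusted p 0.0592). Syp was at 248, 187, 210.0 and 202 CPM in vehicle, 56.4, 142, 118 and 88.8 CPM at 24 h and 58.4, 82.4, 91.6 and 144 CPM at 48 h (chromosome X, 7638471 to 7653256, plus strand). No DOI mouse at these times reached the vehicle mice. Its log2 fold change was -1.06 (SE 0.39, edgeR adjusted p 0.0550) at 24 h and, with an SE of 0.39, -1.17 at 48 h (adjusted p 0.0322). An opposite-strand gene shares 16.8% of the exon bases of Syp.

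Syngr3 was at 911, 566, 576 and 550 CPM in vehicle, with mouse 1 far above the rest (chromosome 17, 24685092 to 24689955, minus strand). It was at 158, 472, 469 and 293 CPM at 24 h and at 260.3, 242, 214 and 426 CPM at 48 h, and neither group overlapped vehicle. On the log2 scale the change was -0.90 (SE 0.39, edgeR adjusted p 0.0925) and -1.19 (SE 0.39, adjusted p 0.0285). Syngr1, of the same family, rose at 48 h by 0.69 (SE 0.23, adjusted p 0.0311, edgeR). Sv2a, the target of the antiepileptic levetiracetam, had log2 fold changes of 0.28 and 0.53 (adjusted p 0.319 and 0.0554), and Sv2c of 0.31 and 0.49 (adjusted p 0.471 and 0.226).

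**Figure D3:**
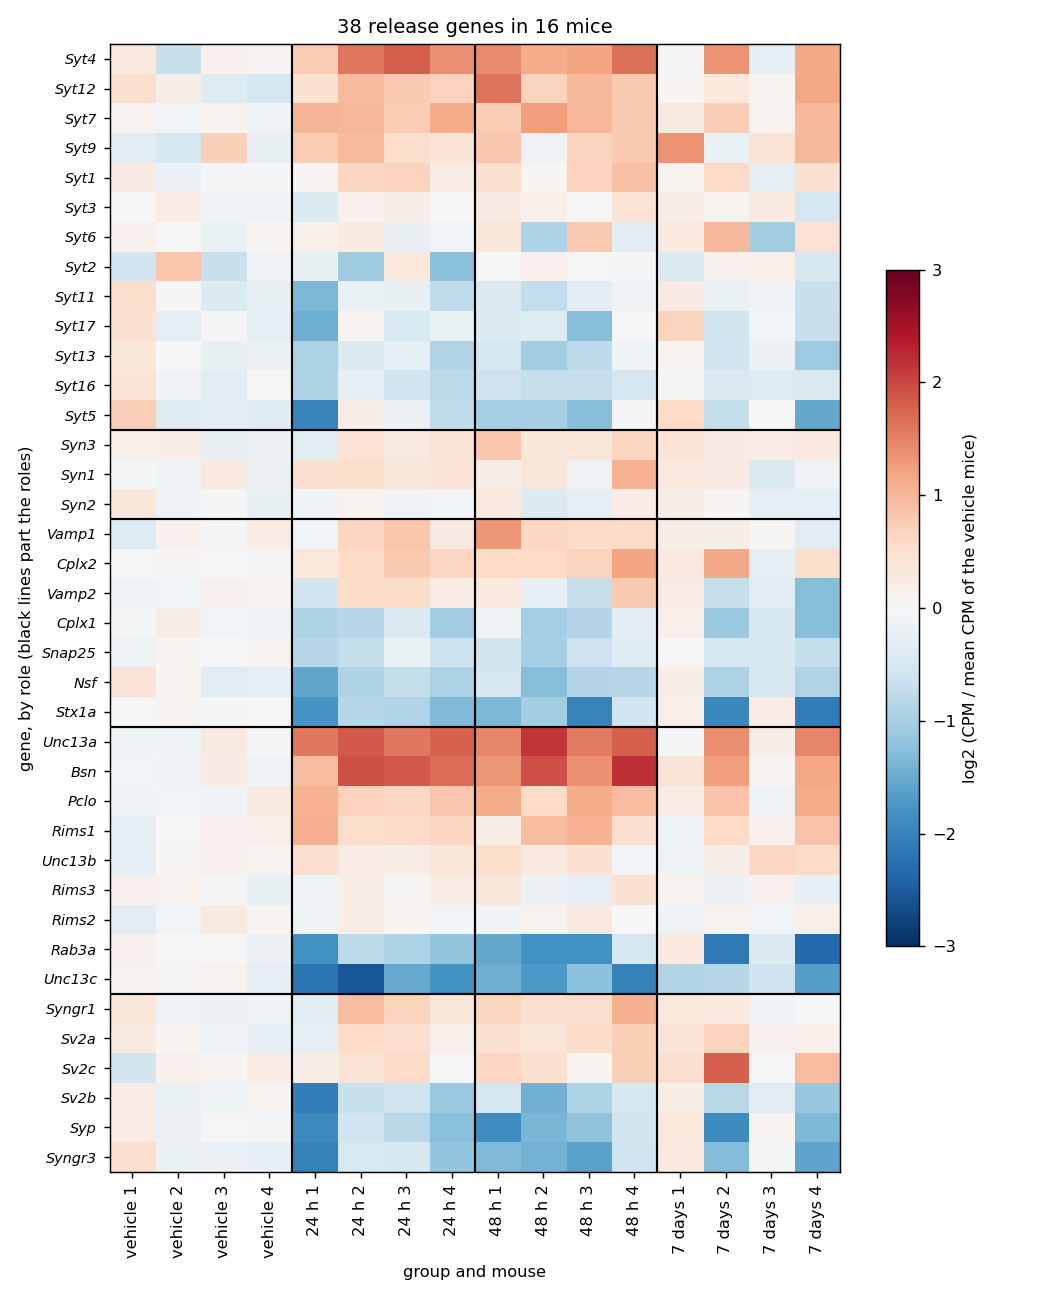
Log2 of the CPM over the mean of the vehicle mice (colour; red higher, blue lower) for the 38 genes (rows, by role) in the 16 mice (columns). Unc13a, Bsn and Syt4 are red in the 8 mice at 24 h and 48 h and in mice 2 and 4 at 7 days, and Stx1a, Rab3a, Syp and Syngr3 are blue in the same mice.

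In some families 2 relatives had changes of opposite sign, and the ratio of 2 genes within a mouse depends on neither depth nor scaling. The 3 pairs below were picked after their changes were seen, so the ratios describe the pairs and were not tested. The level of Unc13a per kilobase of exon over that of Unc13c was 1.39, 1.41, 1.79 and 1.82 in the vehicle mice. It was 21.5, 32.9, 13.6 and 19.1 at 24 h and 12.1, 23.1, 11 and 22.5 at 48 h. Both genes moved this ratio, as Unc13a was 3.25-fold and 3.38-fold higher and Unc13c 3.85-fold and 3.0-fold lower. Unc13c had as few as 27 counts in a mouse. Cplx2 over Cplx1 was 0.25 to 0.29 in vehicle, 0.65 to 0.88 at 24 h and 0.46 to 0.84 at 48 h, so per kilobase Cplx1 was above Cplx2 in all of these mice. In CPM, which is not divided by length, Cplx2 was above Cplx1 in all 8 mice at 24 h and 48 h. At 7 days it was 0.30, 1.32, 0.32 and 0.96, with mouse 2 above 1. Syngr1 over Syngr3 was 0.086 to 0.103 in vehicle, 0.21 to 0.30 at 24 h and 0.30 to 0.40 at 48 h, and 0.095, 0.281, 0.090 and 0.278 in the mice at 7 days. For all 3 pairs the ranges at 24 h and 48 h lay wholly above that of vehicle.

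**Figure D4:**
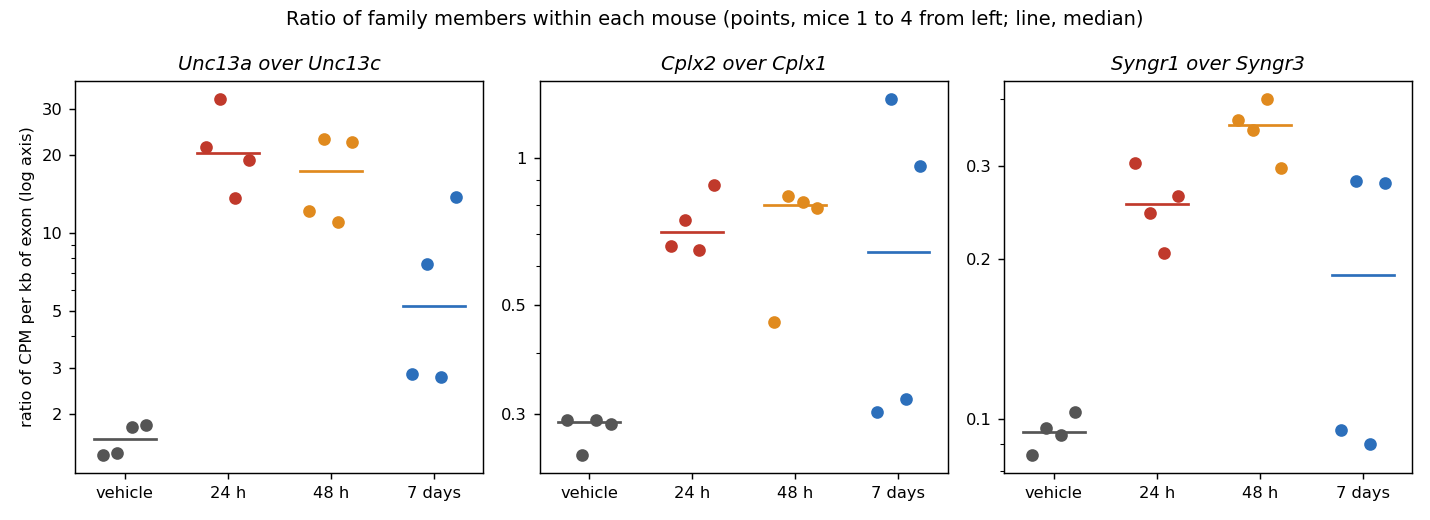
Ratio of the levels (CPM per kb of exon, log axis) of 2 genes of a family within each mouse, for Unc13a over Unc13c, Cplx2 over Cplx1 and Syngr1 over Syngr3; points are mice 1 to 4 from left and the line is the median. Vehicle mice lie below all mice at 24 h and 48 h, and the mice at 7 days span from 2.77 to 13.7 for the first pair.

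At 7 days, 0 members passed the edgeR test, as did 0.0% of all genes tested. DESeq2 called 3 (Sv2c, Unc13a and Unc13c), against 4.44% of all genes, and 9 of 38 had an unadjusted p below 0.05, against 16.8% of all genes. The smallest adjusted p were 0.115 for Unc13c, with a log2 fold change of -0.96 (SE 0.28), and 0.128 for Unc13a, with 0.90 (SE 0.28), both by edgeR. Unc13c was at 12.4, 12.9, 15.1 and 7.42 CPM, below all vehicle mice. It and Syn3 (26.97 to 30.6 CPM against 19.8 to 26.5 in vehicle) were the members without overlap, against 5.85% of all genes. Unc13a was at 51.0, 140.1, 59.9 and 146 CPM, so that mice 1 and 3 lay inside the vehicle range and mice 2 and 4 far above it.

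This division of the 7 days mice ran through most of the named genes. Syp was at 266, 57.4, 225 and 83.2 CPM, Snap25 at 4077, 2913, 2923 and 2496 CPM, and Rab3a at 159.7, 30.0, 98.1 and 25.9 CPM. For Syp and Rab3a mice 2 and 4 were the low ones, while for Snap25 mouse 3 was as low as mouse 2. Syt4 was at 290.5, 759, 249.7 and 659.6 CPM, Bsn at 59.0, 109, 47.8 and 102 CPM, and Syngr3 at 798, 266, 630 and 218 CPM. Syt1 was at 1068, 1490, 809.9 and 1353 CPM. Stx1a was at 264.5, 61.7, 277 and 55.8 CPM, with mice 2 and 4 far below the others.

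Nsf was at 1162, 534, 734 and 543 CPM, Cplx1 at 179, 74.2, 116 and 66.3 CPM, and Sv2b at 792, 397, 553 and 319.7 CPM. Syt7 was at 56.5, 78.2, 50.9 and 93.2 CPM, and Syt12 at 19.6, 23.6, 19.8 and 42.7 CPM, with mouse 4 alone far above the others. Unc13a over Unc13c per kilobase was 2.85, 7.57, 2.77 and 13.7, above the vehicle range in all 4 mice.

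Counted over the 38 genes, mice 1 to 4 at 7 days lay outside the vehicle range in 39.5%, 71.1%, 50.0% and 84.2% of them, and over all genes tested in 40.7%, 72.9%, 47.1% and 75.5%. The mice at 24 h lay outside it in 73.7% to 81.6% of the members (63.9% to 77.3% of all genes) and those at 48 h in 78.9% to 89.5% (68.0% to 75.5% of all genes). Mice 2 and 4 are those with 6171 and 4622 CPM of the 18S pseudogene and with the higher striatal and excitatory marker sums. Sv2c, an SV2 form known from the basal ganglia, was at 27.8, 68.5, 20.1 and 37.4 CPM at 7 days, against 13.5 to 23.2 CPM in vehicle, with the highest value in the mouse with the highest striatal sum. Its log2 fold change was 0.96 (SE 0.30, edgeR adjusted p 0.133). Without mouse 1 of this group 4 members passed (Cplx1, Rab3a, Sv2c and Unc13a), and without mouse 3, 6 passed (Bsn, Pclo, Sv2c, Syt7, Unc13a and Unc13c). In these fits 7.26% and 6.28% of all genes passed.

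When 7 days was compared with 48 h, 0 members passed by edgeR, as did 0.0% of all genes, and 5 had an unadjusted p below 0.05 (13.2%, against 16.5% of all genes). DESeq2 called 1, Bsn, and edgeR called 1, Unc13a, without mouse 4 of 7 days. Of all genes 2.42% and 2.37% passed in these settings, so 1 of 38 is near the background. For Bsn the log2 fold change of 7 days over 48 h was -0.94 (SE 0.27, edgeR adjusted p 0.153), and that of Unc13a was -0.86 (SE 0.28, adjusted p 0.170). The values over 38 members ran from -0.94 for Bsn to 0.75 for Syp.

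The list of other vesicle cycle genes held 91 symbols, of which 90 were matched and 86 tested, and was written with earlier results of these data known. By edgeR 28 of 86 passed at 24 h, with 18 of them higher, and 31 at 48 h, with 19 of them higher. These are 32.6% and 36.0%, against 24.2% and 30.1% of all genes. None (0) passed at 7 days, where 12 had an unadjusted p below 0.05 (14.0%, against 16.8% of all genes). The count at 24 h went to 16 or 17 without any 1 vehicle mouse and to 16 without 24 h mouse 4, while the share of all genes went to between 13.9% and 17.4%. At 7 days the count went to 7 without mouse 1 and 4 without mouse 3 (7.26% and 6.28% of all genes). Among 13 active zone scaffolds outside the 38 genes, 8 passed at each of 24 h and 48 h, 6 higher and 2 lower each time. The priming and active zone genes among the 38 had likewise passed in 5 of 9 and 6 of 9. Rimbp2, which links RIM to calcium channels, rose by 1.94 (SE 0.40, adjusted p 0.00402) after 24 h and, with an SE of 0.40, by 1.69 after 48 h (adjusted p 0.00612). Apba1, the adaptor Mint1 that binds Munc18, rose by 1.69 (SE 0.33, adjusted p 0.00329) after 24 h and, with an SE of 0.33, by 1.62 after 48 h (adjusted p 0.00284).

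Among 14 vesicle loading genes 4 passed at 24 h (2 higher, 2 lower; 28.6%) and 6 at 48 h (2 higher, 4 lower; 42.9%), against 24.2% and 30.1% of all genes. Atp6v1c1, a subunit of the proton pump, fell by 1.31 (SE 0.30, edgeR adjusted p 0.00651) after 24 h and, with an SE of 0.30, by 1.51 after 48 h (adjusted p 0.00271). Sh3gl3, an endophilin of vesicle endocytosis, fell by 1.19 (SE 0.34, edgeR adjusted p 0.0192) after 24 h and, with an SE of 0.34, by 1.17 after 48 h (adjusted p 0.0173), although mouse 1 at 24 h, at 41.3 CPM, lay inside the vehicle range of 35.6 to 53.6 CPM. Rab3d, a relative of Rab3a, fell by 0.88 (SE 0.27, edgeR adjusted p 0.0280) after 24 h and, with an SE of 0.28, by 1.23 after 48 h (adjusted p 0.00490). Among 24 endocytosis genes 6 passed at each time (4 higher, 2 lower), and among 22 SNARE partners 7 and 8. The endocytosis share, 25.0%, was near that of all genes at 24 h and below it at 48 h, and the SNARE partners passed in 31.8% and 36.4%, against 24.2% and 30.1% of all genes.

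The members differ in length, which the choice of genes did not use. Exon length ran from 2071 bases for Syngr3 to 22746 for Unc13b. Members that were higher at 48 h had a median of 7821 bases (n = 11), those lower 6001 (n = 8) and the rest 5205 (n = 19). At 24 h the medians were 10222 (n = 6), 8363.5 (n = 6) and 5205 (n = 26), so members that passed as lower were not shorter than the rest at either time. Across the 38 genes, which are not independent replicates, exon length on a log scale and log2 fold change had a Pearson r of 0.37 at 24 h and 0.43 at 48 h (Spearman 0.32 and 0.34). Over all 17941 genes r had the opposite sign, at -0.16 and -0.13, with Spearman values of -0.07 and -0.03. Of the 4 members with the shortest exons at 48 h, Syngr3 and Rab3a passed as lower and Cplx1 and Syt5 had negative values without passing. The genomic span was not related in this way among the members (r of 0.06 and 0.14).

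**Figure D5:**
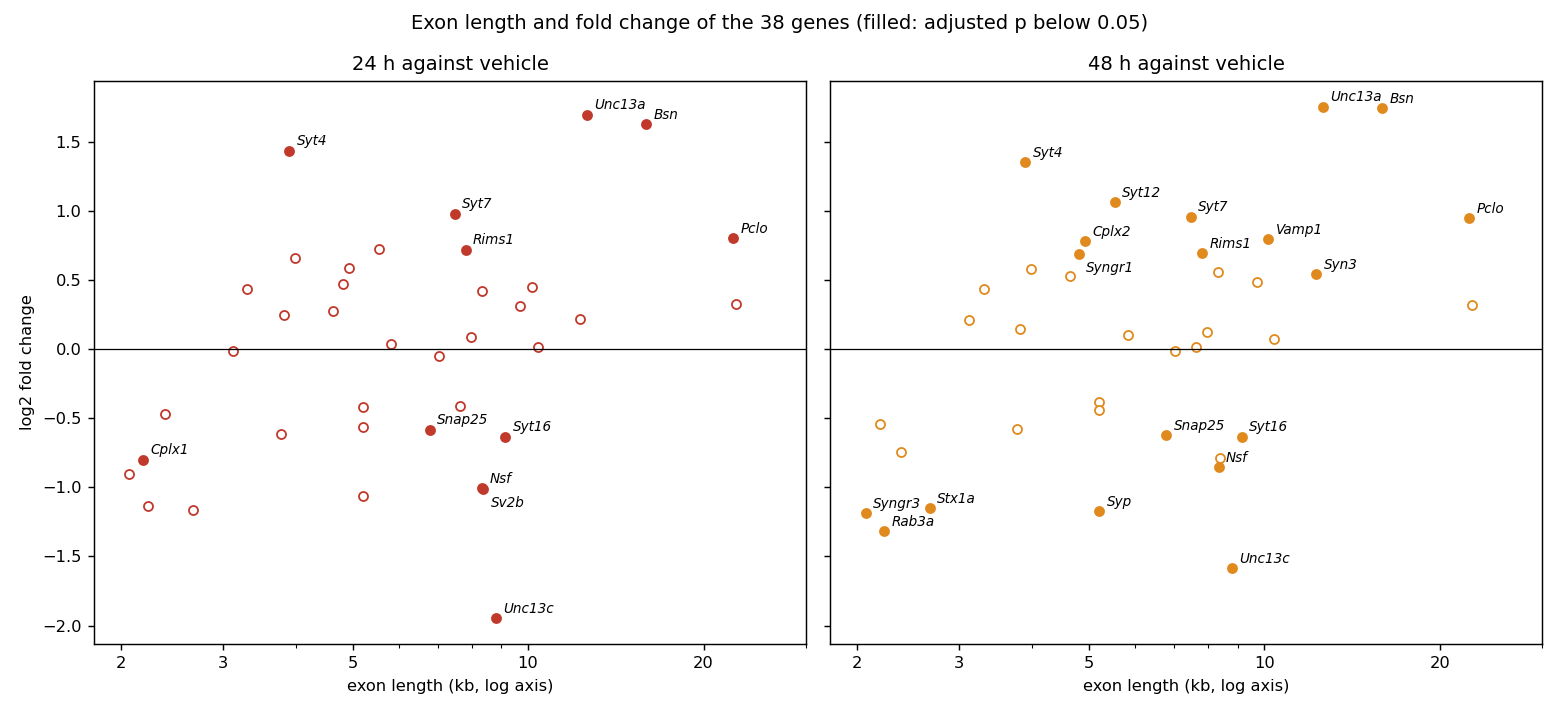
Exon length (kb, log axis) against log2 fold change for the 38 genes at 24 h and 48 h; filled, named points passed the edgeR test. The shortest genes, at 2 to 3 kb, lie below 0, and Unc13a, Bsn and Pclo lie high at lengths above 12 kb. Unc13b, the longest at 22746 bases, lies nearer 0 (0.33 and 0.32), as does Syn3 at 12282 bases (0.22 and 0.55).

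Some members hold annotated single-exon features in their introns, on the same strand. Of 24 such features in 11 members, 16 in 8 members passed the filter. By edgeR 8 of the 16 were higher and 1 was lower at 24 h and at 48 h, when 13.8% and 16.8% of all genes were higher. This is a description only, since Gm37326 in Unc13c and Gm42444, Gm42445 and Gm43663 in Pclo had vehicle means of 0.15, 0.31, 0.37 and 0.34 CPM, near the level of 3 counts, and could pass the filter through the DOI groups. Pclo held Gm42447, at a mean of 15.4 CPM in vehicle and 58.3 CPM at 48 h, a rise of 1.92 (adjusted p 0.00980, edgeR), beside the rise of 0.95 of Pclo itself. Inside Nsf, which fell, Gm8738 rose by 1.63 at 24 h (adjusted p 0.0214, edgeR), from a mean of 2.82 CPM to 8.76 CPM. Inside Sv2c, Gm20075, the lower feature, fell by 0.77 at 24 h and 0.90 at 48 h (adjusted p 0.0482 and 0.0208, edgeR). These features were named after their values were seen. Whether their reads came from introns of the host gene was not tested.

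Calls differed in how far they rested on single mice. Of the calls at 24 h and 48 h, those of Unc13a, Bsn, Unc13c, Syt4 and Syt7 stayed past the threshold with each of the 8 mice compared left out in turn, as were those of Nsf at 24 h and Pclo at 48 h. Snap25 and Cplx1 at 24 h, and Stx1a and Syp at 48 h, kept theirs with 1 of 8 left out and lost it with the other 7. Rab3a at 48 h kept its call in 2 of 8, Rims1 in 3 at 24 h and 4 at 48 h, and Syngr1 at 48 h in 3. Vamp1, Syngr3 and Snap25 at 48 h and Pclo and Sv2b at 24 h kept theirs in 4 of 8, Syt16 in 5 at 24 h and 7 at 48 h, Nsf at 48 h in 6, and Syt12 and Cplx2 at 48 h in 7. With the share of the 18S pseudogene as a covariate 0 members and 0 of 17941 genes passed at any time, and groups held 75.1% of the variance of that share on a log2 scale. With the mitochondrial share as a covariate 3 members passed at 24 h and 0 at 48 h, against 1.47% and 0.0% of all genes, and groups held 53.9% of its variance.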

How the data were processed

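RNA of sorted nuclei had been made into libraries by SMART-seq2 and Nextera XT, per the labels' protocols. The authors deposited raw read counts per gene for each library, made with featureCounts 2.0.0 over exons of the GRCm38 Ensembl annotation, without strand and without reads shared by genes, per the file headers. The aligner of the RNA reads is not given in the sources used here. Of 55401 gene IDs, 99.5% were paired with a symbol. The protocol states 6 mice per group; RNA of 4 per group was analysed, and the H3K27ac libraries were not analysed here.

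For each mouse its 2 libraries were added up (16 mice, 32 libraries of 2763704 to 7436451 counts). Genes were filtered with filterByExpr, scaled by TMM and fitted over all 4 groups with edgeR 4.0.16 in R 4.3.3, using the quasi-likelihood test with Benjamini-Hochberg adjustment over 17941 genes and a threshold of 0.05. Standard errors are the log2 fold change divided by the root of F. Alternatives were DESeq2 1.42.0, limma 3.58.1 on libraries with duplicateCorrelation, other scalings, filters and thresholds, covariates, a replicate block and each mouse left out. The fit was tested on simulated data.

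The members, pathway list and marker lists were chosen with earlier results of these data known. Genes given mouse by mouse were Syt1, Snap25 and Syp, and at 24 h and 48 h the 4 called members with the largest change in each direction without overlap between the groups and a mean log2 CPM of at least 2; at 7 days the 2 with the smallest p. Of the other pathway genes, the 2 with the largest change in each direction at 24 h or 48 h were named, with the same minimum of the mean log2 CPM, which Prrt2 and Rims4 did not reach. Stx1a, the vehicle and 7 days values of Sv2c, the family pairs and the nested features were chosen after their values were seen. Promoters are from RefSeq (GRCm38.p6).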

Additional observations from a re-analysis of the deposited data

Results flagged for a closer look

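In 12 of 152 groups of 4 mice (38 genes in 4 groups), 1 mouse stood far from the other 3 by Dixon's criterion, where chance alone gives about 1 in 20, or 7.6. All 12 were on the high side, and each is given in CPM with the nearest other mouse. In vehicle, Syt5 was at 569.3 in mouse 1 (nearest 271.6), Syt9 at 4.42 in mouse 3 (2.34), Cplx1 at 185.9 in mouse 2 (155.1), Bsn at 53.8 in mouse 3 (43.1) and Pclo at 224.9 in mouse 4 (177.5). Vehicle mouse 1 also stood apart for Syngr1, at 181.1 (132.0), and Syngr3, at 910.8 (575.5). At 48 h, mouse 4 stood apart for Syt5 at 335.7 (174.1), Cplx2 at 227.7 (160.5) and Rab3a at 90.1 (44.9), and mouse 1 for Vamp1 at 32.02 (19.9). At 7 days, Syt16 was at 279.1 in mouse 1 (208.3).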

How the results depend on the processing

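With the 18S pseudogene share as a covariate 0 members were higher or lower at 24 h and at 48 h, as were 0 other pathway genes. The fold changes of 9 calls then changed sign, to -0.10 (Syt4), 0.10 (Cplx1) and -0.069 (Pclo) at 24 h, and to -0.25 (Syt4), 1.00 (Stx1a), -0.17 (Cplx2), 0.70 (Rab3a), 0.51 (Syp) and 0.14 (Syngr3) at 48 h, with edgeR adjusted p of 0.985 to 0.999. Groups and this share overlap in what they explain, and the cause was not tested. With the mitochondrial share 2 members were higher and 1 lower at 24 h, 0 higher and 0 lower at 48 h, and 2 and 0 pathway genes passed.

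Lower members at 24 h (6) numbered 12 with duplicateCorrelation, 10 with no filter, 11 with only the 2 groups compared, 11 with no 7 days mice in the fit (chosen after seeing the data), 2 without 24 h mouse 1 and 48 h mouse 1, and 3 without the mice with another header number. In the main fit 24.2% of all genes passed in either direction, and 10.4% were lower. In these fits the share in either direction was 29.9%, 13.0% (of 36503 genes with no filter), 36.7%, 34.3%, 18.3% and 19.4%. These shares count both directions, so they are not a direct background for the lower members. At a threshold of 0.01 there was 1 lower member at 24 h, where 2.86% of all genes were lower. At 48 h there were 5 higher and 1 lower, against 7.42% and 4.22% of all genes. Pathway genes past 0.01 in either direction numbered 11 and 19, against 7.83% and 11.6% of all genes. At 0.1 there were 11 lower members at 24 h (15.3% of all genes were lower). Pathway genes at 48 h (31) numbered 48 with duplicateCorrelation and 48 with only the 2 groups compared (32.9% and 41.5% of all genes). At 7 days against vehicle 3 members passed with DESeq2, 3 with duplicateCorrelation and 3 with no filter (4.44%, 2.27% and 2.62% of all genes), and 4 and 2 pathway genes with the last pair of settings. Against 48 h these were 1, 4 and 2 members (2.42%, 7.0% and 1.82% of all genes).

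Mice with the same number are different animals, and their deviations had a mean correlation of -0.04. With the replicate block 6 members were higher and 5 lower at 24 h, and 9 higher and 4 lower at 48 h, when 20.4% and 26.0% of all genes passed.

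With each mouse left out in turn, 4 to 6 members were higher and 2 to 6 lower at 24 h, and 7 to 10 higher and 2 to 9 lower at 48 h. At 7 days 0 to 6 passed against vehicle and 0 to 1 against 48 h, and 0 to 0 at 48 h against 24 h. Of the pathway genes 16 to 27 passed at 24 h, and for the later groups the ranges were 24 to 35 (48 h) and 0 to 7 (7 days). Depth limits Syt9, Syt2 and Unc13c most, where a mouse had as few as 15, 34 and 27 counts.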
